A study of Mus musculus with 2 samples.

Results

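Aligned reads of mouse embryonic stem (ES) cells piled up in 4 short regions of the mm9 assembly that are described as satellite pile-ups. The regions are a 40 kb stretch of chromosome 9 (2999001 to 3039000), a 6 kb region of chromosome 2 (98502001 to 98508000), a 2 kb region of chromosome 9 (35112001 to 35114000) and a 2 kb region of chromosome 12 (3109001 to 3111000). They were chosen by their read density, which was very high in both libraries of the series, so their read levels are given as a description and support nothing further. Strand, spacing between starts and the bases read from both strands played no part in the choice. The 4 regions span 500 windows of 100 bp and held 1772322 of 3503839 reads in the H2ABbd-labelled library and 787603 of 9266471 reads in the 5mC-labelled library.

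The series mapped the histone variant H2ABbd and methylated cytosine in the DNA of ES cells. The first library is a ChIP-seq library, made from formaldehyde-crosslinked, sonicated chromatin with a home-made rabbit antibody against mouse H2ABbd. The second is a MeDIP library, made from sonicated DNA that was denatured and precipitated with a mouse monoclonal antibody (clone 33D3) against 5-methylcytosine. Cells were grown feeder-free with the cytokine LIF, and their strain and line are not given in the labels. Each group is 1 library and no input library was used here, so no difference below has a replicate check, no test was made, and intervals are exact Clopper-Pearson 95% intervals that cover counting error only. The deposited files are named with the antibodies swapped relative to the labels, so every direction rests on the sample labels.

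Satellite DNA consists of short units repeated head to tail in very many copies. In the mouse the major (gamma) satellite makes up most of the pericentromeric heterochromatin, is rich in methylated cytosine and is represented in assemblies by a few short stretches only. H2ABbd (named for being Barr body deficient, that is, depleted on the inactive X chromosome) is a short H2A variant whose nucleosomes wrap less DNA than canonical ones. The files hold positions and no bases, and neither a repeat annotation nor the mm9 sequence was used here, so no sequence or gene is named in these regions, and their satellite identity was checked only through the spacing of starts, for which the autocorrelation was computed in the 40 kb stretch alone.

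The 40 kb stretch took 16.6% of the reads of the H2ABbd-labelled library (582650 reads) and 3.42% of those of the 5mC-labelled library (316833 reads). The chromosome 2 region took 27.9% of the H2ABbd-labelled library (978999 reads) and 4.25% of the 5mC-labelled library (393500 reads). The 2 kb region of chromosome 9 held 108705 reads in the H2ABbd-labelled library and 36712 in the 5mC-labelled library, and the chromosome 12 region held 101968 in the H2ABbd-labelled library and 40558 in the 5mC-labelled library. All 4 regions thus took a larger share of the H2ABbd-labelled library, together 50.6% (50.5 to 50.6%) against 8.50% (8.48 to 8.52%) of the 5mC-labelled library. Counted once per position and strand, they made up 2.74% of the distinct positions of the H2ABbd-labelled library against 0.559% of those of the 5mC-labelled library. Few reads lay just outside the regions, a contrast favoured by choosing them for their read density and given as a description. The 1 kb bins just outside the 8 borders held 0 to 6 reads in the H2ABbd-labelled library and 0 to 7 in the 5mC-labelled library, while the outermost bins inside held 4876 to 550174 reads in the H2ABbd-labelled library and 1965 to 208321 in the 5mC-labelled library. The exception was the left end of the 40 kb stretch, whose first 1 kb bin was empty in both libraries.

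Within the 3 shorter regions the reads stood in a few blocks with empty sequence between them. Of the 500 windows, 74 held no read of the H2ABbd-labelled library and 61 no read of the 5mC-labelled library, and the 61 were empty in both. In the chromosome 2 region, runs of windows with at least 100 reads in either library formed 4 blocks of 900, 500, 300 and 1200 bp. The rightmost, from 98506301 to 98507500, alone held 22.2% of all reads of the H2ABbd-labelled library (778537 reads) and 3.11% of those of the 5mC-labelled library (288488 reads). The first, from 98502301 to 98503200, held 5.35% of the H2ABbd-labelled library and 0.990% of the 5mC-labelled library. Nearly all reads of the 2 kb region of chromosome 9 lay in 1 block of 500 bp (35112701 to 35113200), and those of the chromosome 12 region in 1 block of 300 bp (3109801 to 3110100).

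The most-read windows were largely the same in both libraries. In the chromosome 2 region the window from 98507201 to 98507300 led in both, with 346006 reads in the H2ABbd-labelled library, 9.88% of that library, and 110245 reads in the 5mC-labelled library, 1.19% of it. The window from 35113001 to 35113100 led in the 2 kb region of chromosome 9 (57206 reads in the H2ABbd-labelled library and 17537 in the 5mC-labelled library), and that from 3109901 to 3110000 led in the chromosome 12 region (72455 in the H2ABbd-labelled library and 31480 in the 5mC-labelled library). In the 40 kb stretch the libraries had different leading windows. The window from 3018001 to 3018100 had 9970 reads in the H2ABbd-labelled library and 5160 in the 5mC-labelled library, where it ranked 3. The window from 3007101 to 3007200 had 9487 reads in the H2ABbd-labelled library and 5351 in the 5mC-labelled library, where it led.

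The reads of the H2ABbd-labelled library lay mostly on 1 strand, and which strand depended on the region and block. In the 40 kb stretch 17442 reads were on the plus strand and 565208 on the minus strand, so that 2.99% were plus (2.95 to 3.04%). In the 5mC-labelled library 129329 and 187504 reads gave 40.8% plus (40.6 to 41.0%). The other regions leaned the opposite way. The chromosome 2 region was 86.0% plus in the H2ABbd-labelled library and 73.8% plus in the 5mC-labelled library. The 2 kb region of chromosome 9 was 99.0% plus in the H2ABbd-labelled library and 81.6% plus in the 5mC-labelled library. The chromosome 12 region was 99.3% plus in the H2ABbd-labelled library and 88.8% plus in the 5mC-labelled library. By reads, both libraries had the same majority strand in each of the 4 regions, and the H2ABbd-labelled library had the more uneven split. Summed over the regions these opposite leanings cancelled to 60.3% plus reads in the H2ABbd-labelled library and 61.7% in the 5mC-labelled library. Outside the 4 regions 55.0% of reads were plus in the H2ABbd-labelled library and 53.0% in the 5mC-labelled library. Distinct positions were split more evenly than reads in each of the 4 regions. In the H2ABbd-labelled library 20.2% were plus in the 40 kb stretch and 48.4% in the chromosome 2 region. The share was 59.6% in the 2 kb region of chromosome 9 and 60.8% in the chromosome 12 region. In the 5mC-labelled library these shares were 45.3%, 50.2%, 50.4% and 51.8% in the same order. In the chromosome 2 region the distinct positions thus had no shared majority strand.

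**Figure D1:**
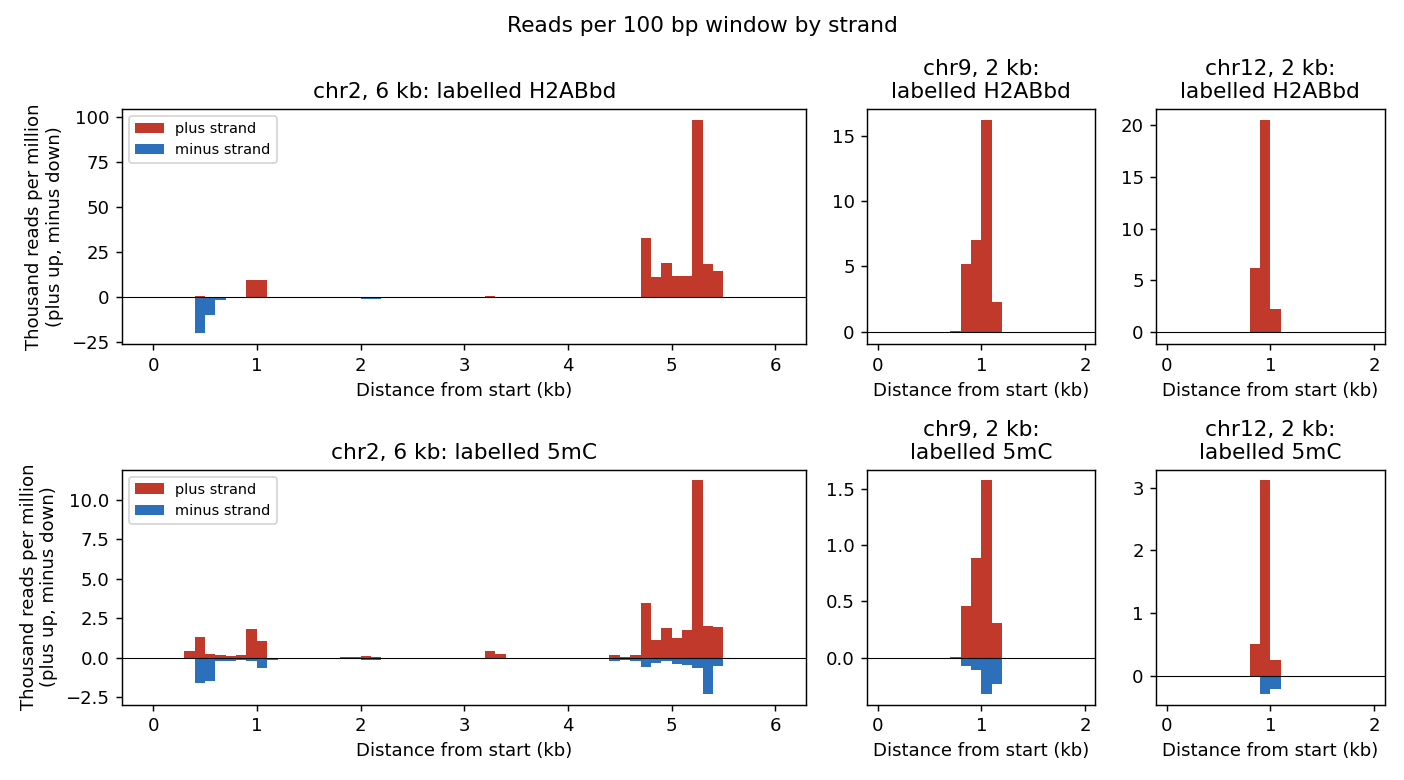
Reads per 100 bp window, scaled to RPM (reads in a library of 1000000 reads, here in units of 1000 RPM), against the distance in kb from the start of the chromosome 2 region (left), the 2 kb region of chromosome 9 (middle) and the chromosome 12 region (right); bars above 0 are plus-strand reads and bars below 0 minus-strand reads, with the H2ABbd-labelled library in the upper row, the 5mC-labelled library in the lower row and a scale of its own in each panel. In the upper row the block from 98506301 to 98507500 is 98.5% plus and the first block, from 98502301 to 98503200, holds both strands (37.9% plus), while in the lower row those blocks are 80.7% and 53.5% plus.

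The strand changed between blocks of the chromosome 2 region. The first block was 37.9% plus in the H2ABbd-labelled library and 53.5% plus in the 5mC-labelled library, with minus reads in its left part and plus reads in its right part in the H2ABbd-labelled library. The second block, from 98503801 to 98504300, was 2.23% plus in the H2ABbd-labelled library and 40.2% plus in the 5mC-labelled library. Both blocks further right were mostly plus, at 91.6% and 98.5% in the H2ABbd-labelled library and at 80.2% and 80.7% in the 5mC-labelled library.

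In the 40 kb stretch minus was the majority strand of every 1 kb bin with reads in both libraries. Of its 1 kb bins, 39 held reads. Their plus share ran between 1.52 and 4.63% in the H2ABbd-labelled library (median 2.74%) and between 31.6 and 46.9% in the 5mC-labelled library (median 39.7%). No bin of the H2ABbd-labelled library reached the lowest bin of the 5mC-labelled library. Single windows of 100 bp varied more: of 351 with at least 100 reads in both libraries, 3 were majority plus in the H2ABbd-labelled library and 91 in the 5mC-labelled library, and 263 had the same majority strand in both. The level differed between bins, at 4876 to 29300 reads (median 13317) in the H2ABbd-labelled library and 1965 to 17690 reads (median 7194) in the 5mC-labelled library. The libraries rose and fell together along it: across the 39 bins the levels on the log2 scale of RPM (reads scaled to a library of 1000000 reads) had Pearson r = 0.987 and Spearman rho = 0.977, a description of bins that share libraries and reference sequence. The ratio of the share of the H2ABbd-labelled library to that of the 5mC-labelled library stayed between 4.24 and 6.56 (median 4.90).

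**Figure D2:**
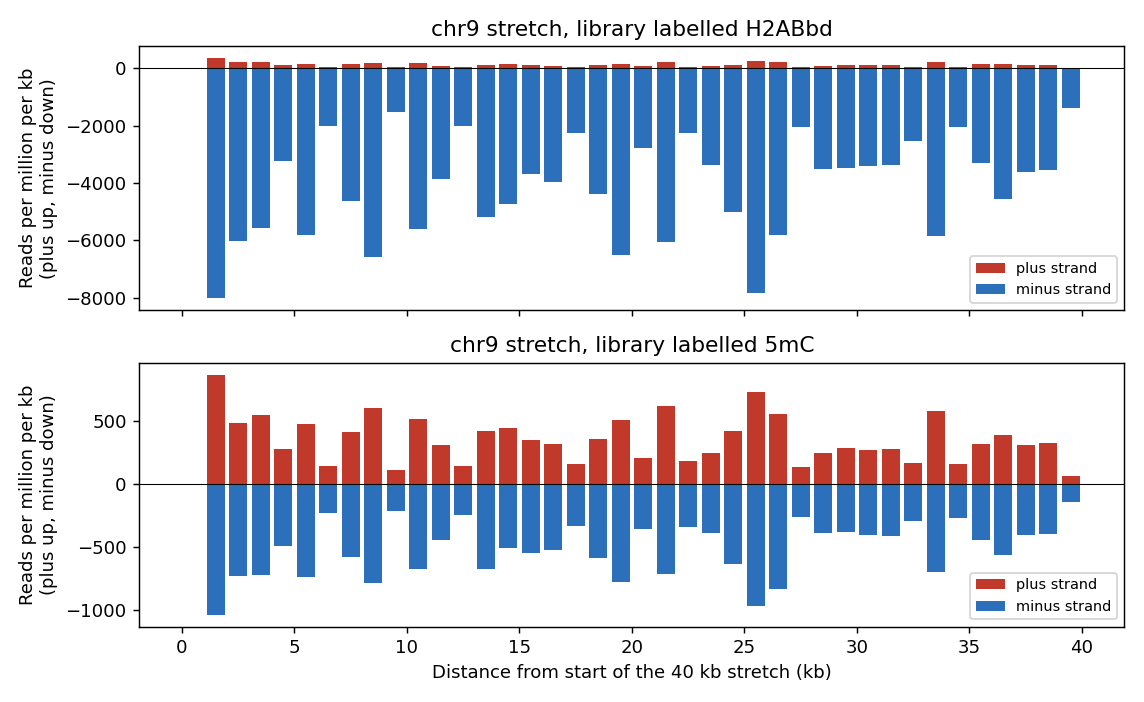
RPM in each 1 kb bin of the 40 kb stretch of chromosome 9, against the distance in kb from its start; bars above 0 are plus-strand and bars below 0 minus-strand reads, in the H2ABbd-labelled library (upper) and the 5mC-labelled library (lower), on different scales. The bins are high and low at the same places in both, but the plus bars are 1.52 to 4.63% of a bin in the upper panel and 31.6 to 46.9% in the lower one.

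The ratio of the libraries also differed between strands of the same region. On the majority strand the H2ABbd-labelled library took the larger share. Minus reads of the 40 kb stretch made up 16.1% of it and 2.02% of the 5mC-labelled library, a ratio of 7.97 (bounds from the ends of both intervals 7.92 to 8.03). Plus reads of the same stretch made up 0.498% of the H2ABbd-labelled library and 1.40% of the 5mC-labelled library, a ratio of 0.357 (0.350 to 0.364). So on the minority strand of this stretch the H2ABbd-labelled library had the smaller share. The same held in the 2 kb region of chromosome 9, where plus reads had a ratio of 9.50 and minus reads (1081 against 6749) a ratio of 0.424 (0.389 to 0.461). It held in the chromosome 12 region too, at 7.44 for plus reads and 0.389 (0.350 to 0.432) for minus reads (668 against 4538). In the chromosome 2 region, which holds blocks of either strand, the ratios were 7.66 and 3.53. Its rightmost block alone had 8.71 for plus and 0.550 for minus reads, and its second block 0.281 for plus and 8.25 for minus reads. Its first block was above 1 on both strands, at 3.83 for plus and 7.20 for minus reads. The remaining block, from 98505101 to 98505400, had 1.29 for plus and 0.480 for minus reads. Read over both strands, the ratio was 4.86 in the 40 kb stretch, 6.58 in the chromosome 2 region, 7.83 in the 2 kb region of chromosome 9 and 6.65 in the chromosome 12 region.

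**Figure D3:**
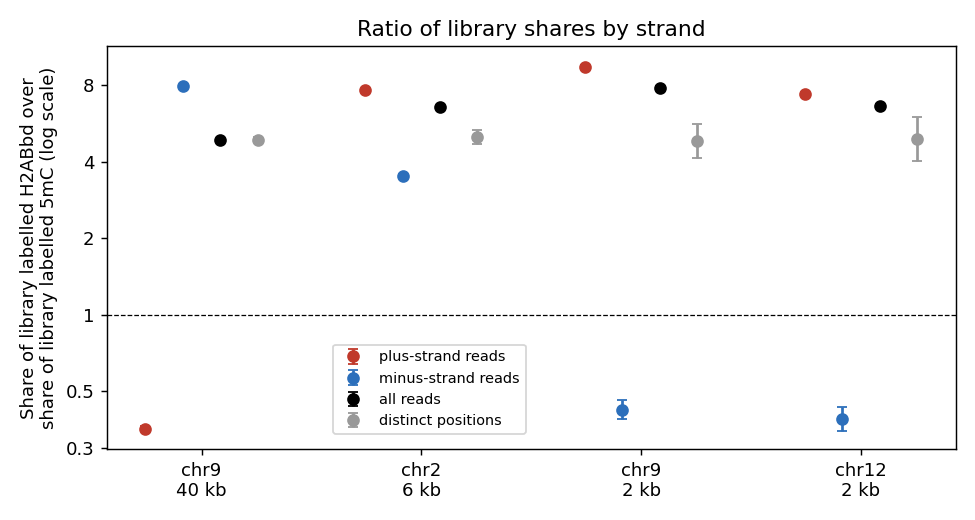
Share of the H2ABbd-labelled library over share of the 5mC-labelled library (log scale) in each region, for plus-strand reads, minus-strand reads, all reads and distinct positions; bars are bounds from the ends of the 95% intervals of both shares and the dashed line is equal shares. In 3 of the 4 regions 1 strand lies far above 1 and the other below it, at 0.357 in the 40 kb stretch, 0.424 in the 2 kb region of chromosome 9 and 0.389 in the chromosome 12 region.

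A read has 42 bases, so a plus read and a minus read whose 5' ends lie 41 bp apart cover the same 42 bases. Per base of each region, the log2(reads + 1) of plus starts and of minus starts downstream correlated most at a distance of exactly 41 bp among distances of 0 to 600 bp, in all 4 regions and both libraries. In the 40 kb stretch r at that distance was 0.620 in the H2ABbd-labelled library and 0.844 in the 5mC-labelled library, against 0.0759 in the H2ABbd-labelled library and 0.0765 in the 5mC-labelled library at 100 bp. In the chromosome 2 region it was 0.469 in the H2ABbd-labelled library and 0.937 in the 5mC-labelled library. Of the segments of 42 bases with a read in the 4 regions, 28.5% were read from both strands in the H2ABbd-labelled library and 67.1% in the 5mC-labelled library, and in the 40 kb stretch 24.8% (6747 of 27223) and 64.5% (15664 of 24299). For segments with more reads the strand split can be given segment by segment. Of 8917 segments with at least 20 reads in the H2ABbd-labelled library, 8471 had 90% or more of their reads on 1 strand, which is 95.0%. Of 6253 such segments in the 5mC-labelled library, 297 did, which is 4.75%. Outside the 4 regions 83.9% of 1109 such segments of the H2ABbd-labelled library and 11.0% of 1353 of the 5mC-labelled library were as uneven, so deep segments elsewhere in the H2ABbd-labelled library were also mostly on 1 strand.

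Among the segments of the 40 kb stretch with at least 20 reads, the median plus share was 2.27% in the H2ABbd-labelled library (7053 segments) and 43.6% in the 5mC-labelled library (4408 segments). In the H2ABbd-labelled library 2464 of the 7053 had no plus read, and in the 5mC-labelled library none of the 4408 did. In the chromosome 12 region all 191 segments of the H2ABbd-labelled library were at least 90% plus, against 78 of 167 in the 5mC-labelled library.

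By windows the picture was similar. Of 402 windows of the 4 regions with at least 100 reads at 20 or more distinct positions in the H2ABbd-labelled library, 365 had 90% or more on 1 strand, which is 90.8% against 57.1% of 198 such windows outside. In the 5mC-labelled library 35 of 389 did, which is 9.00% against 23.0% of 383 windows outside. Windows share libraries and lie next to each other, so these shares were not tested. Of 386 windows with at least 100 reads in both libraries, 294 had the same majority strand in both, and in 368 the H2ABbd-labelled library was further from an even split. Over all 500 windows the distinct positions of the libraries correlated at r = 0.993 and rho = 0.971, and the reads at r = 0.982 and rho = 0.938, on the log2(count + 1) scale. These are descriptions across windows, with no p.

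Read starts in the 40 kb stretch recurred at a spacing of 234 bp, the length of the mouse major satellite unit. The autocorrelation of log2(reads + 1) along each strand had its highest value between lags of 100 and 350 bp at exactly 234 bp on both strands of both libraries. There r was 0.106 on the plus strand and 0.0703 on the minus strand of the H2ABbd-labelled library, and 0.0915 and 0.0494 in the 5mC-labelled library. At the midpoint of that distance r was -0.0545, -0.0132, -0.0357 and -0.00701 in the same order. Between lags of 350 and 600 bp the highest value lay at 468 bp on the minus strand of the H2ABbd-labelled library (r = 0.0873) and on the plus and minus strands of the 5mC-labelled library (r = 0.0863 and 0.0759). On the plus strand of the H2ABbd-labelled library it lay at 448 bp (r = 0.0734), with a lower local maximum at 469 bp (r = 0.0627) within 12 bp of the doubled spacing. On both minus strands r at 468 bp exceeded r at 234 bp. It was also higher there at some lags below 100 bp. Examples are 0.103 at 60 bp in the H2ABbd-labelled library and 0.0717 at 89 bp in the 5mC-labelled library. On the minus strands 234 bp thus led only within lags of 100 to 350 bp. Values at multiples of 234 bp stayed above those midway to the next multiple for the first 6 multiples on the plus strand and the first 7 on the minus strand, in both libraries. Over 40 multiples they did so in 17 to 20 of 40, so the phase was kept over a few units and not along the stretch. By multiple 6 (1404 bp) r was itself negative, though less so than midway to the next multiple. It was -0.0106 and -0.0214 on the plus and minus strands of the H2ABbd-labelled library, and -0.0215 and -0.0240 in the 5mC-labelled library. These correlations are small, and they are of neighbouring bases in 1 library.

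Counting distinct starts once, without their reads, gave a less clear spacing. In all, 42.5% of all possible starts of the stretch in the H2ABbd-labelled library and 50.0% in the 5mC-labelled library were occupied. The lag with the most pairs relative to lags within 40 bp, over lags of 50 to 600 bp and the 4 regions, was 468 bp in the H2ABbd-labelled library and 86 bp in the 5mC-labelled library. Weighted by log2(reads + 1) it was 234 bp in both. On the plus strand of the 40 kb stretch, which had only 6878 occupied starts in the H2ABbd-labelled library, pairs at 234 bp exceeded neighbouring lags 1.13 times, and in the 5mC-labelled library (18108 starts) 1.04 times. The minus strand of the stretch did not lead at 234 bp. Its leading lag was 468 bp in the H2ABbd-labelled library (1.01 times, 27092 starts). In the 5mC-labelled library it was 86 bp (1.03 times, 21855 starts). The chromosome 2 region had no excess at 234 bp that led on any strand: its leading lags weighted by reads were 519 and 520 bp in both libraries, and it is short and made of separate blocks.

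**Figure D4:**
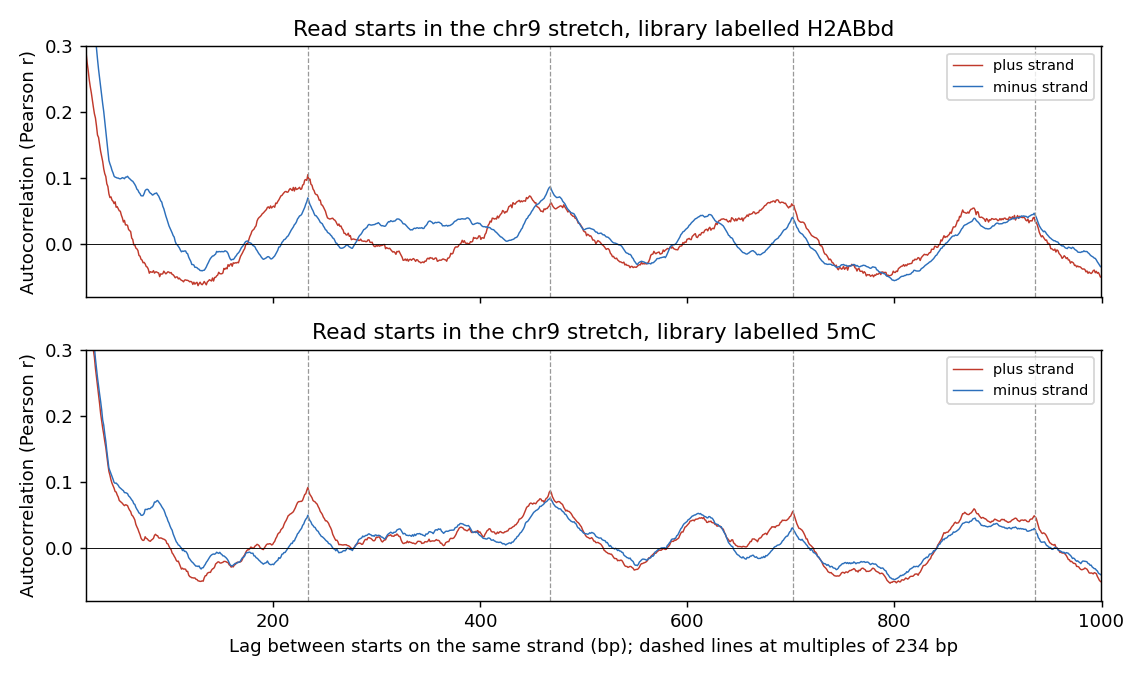
Autocorrelation (Pearson r) of log2(reads + 1) at single-base resolution along the plus and the minus strand of the 40 kb stretch of chromosome 9, against the lag in bp, in the H2ABbd-labelled library (upper) and the 5mC-labelled library (lower); dashed lines mark multiples of 234 bp. All 4 curves have a peak at 234 bp, with r of 0.106 and 0.0703 in the upper and 0.0915 and 0.0494 in the lower panel.

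Reads repeated the same positions far more often in the 4 regions than elsewhere. This contrast was fixed by choosing short regions for their read density, since their reads outnumber the possible starts, and is given as a description. In the H2ABbd-labelled library there were 46.2 reads per distinct position in the regions and 1.27 in the rest of the library, and in the 5mC-labelled library 17.5 and 1.06. These values over the regions together mix unlike ones: they were 22.7 and 9.59 without the chromosome 2 region, and 272 and 93.0 without the 40 kb stretch, in the H2ABbd-labelled and the 5mC-labelled library. The chromosome 2 region had the most, at 285 in the H2ABbd-labelled library and 99.8 in the 5mC-labelled library. In the H2ABbd-labelled library the chromosome 12 region had 279, the 2 kb region of chromosome 9 had 187 and the 40 kb stretch had 17.2, against 95.0, 53.1 and 7.93 in the 5mC-labelled library. A few positions carried many of these reads. In the chromosome 2 region 98 positions, 2.86% of those occupied, held 50% of the reads of the H2ABbd-labelled library, and 162 positions (4.11%) did so in the 5mC-labelled library. The median position there held 10 reads in the H2ABbd-labelled library and 21 in the 5mC-labelled library. In the 40 kb stretch 7.14% of positions in the H2ABbd-labelled library and 10.7% in the 5mC-labelled library held 50% of the reads. The most-read positions of both libraries lay in the rightmost block of the chromosome 2 region on the plus strand. The H2ABbd-labelled library had 8016 reads at 98506981, where the 5mC-labelled library had 2078, and 7581 and 7575 at 98507244 and 98507251, where it had 1540 and 1516. The 5mC-labelled library had most at 98507269, with 5134 reads in the H2ABbd-labelled library and 3014 of its own, followed by 98507272 (6265 and 2855) and 98507281 (6016 and 2683).

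The number of reads per position depends on depth, so the expected number of distinct positions was worked out for the same number of reads in both libraries. At 316833 reads in the 40 kb stretch the H2ABbd-labelled library had 29224 distinct positions and the 5mC-labelled library 39963, a ratio of 0.731. The ratio was 0.758 in the chromosome 2 region at 393500 reads, 0.728 in the 2 kb region of chromosome 9 and 0.770 in the chromosome 12 region. It was 0.781 in chromosome 17 from 39979001 to 39986000, a dense run of 1 kb bins outside the 4 regions, and 0.799 in the rest of the library at 1731517 reads. Among runs of at least 3 adjoining bins on the autosomes and chromosome X, that run was highest relative to its own chromosome. Each bin had at least 10 times the mean of the chromosome's bins with reads, in both libraries. Runs were ranked by the lower of the libraries' mean folds, in distinct positions and not in reads. At equal reads the H2ABbd-labelled library thus had fewer positions in each of the regions compared and in the rest of the library. The ratios inside and outside the 4 regions do not show a shared degree, because reads per position were far higher inside than outside. In the 40 kb stretch the strands also differed. Over all reads the H2ABbd-labelled library had fewer distinct plus starts there than the 5mC-labelled library, but more distinct minus starts, with more minus reads. The thinning was not made by strand. The labels give 20 PCR cycles for the ChIP and 15 for the MeDIP, and their part in the repeated positions was not tested.

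**Figure D5:**
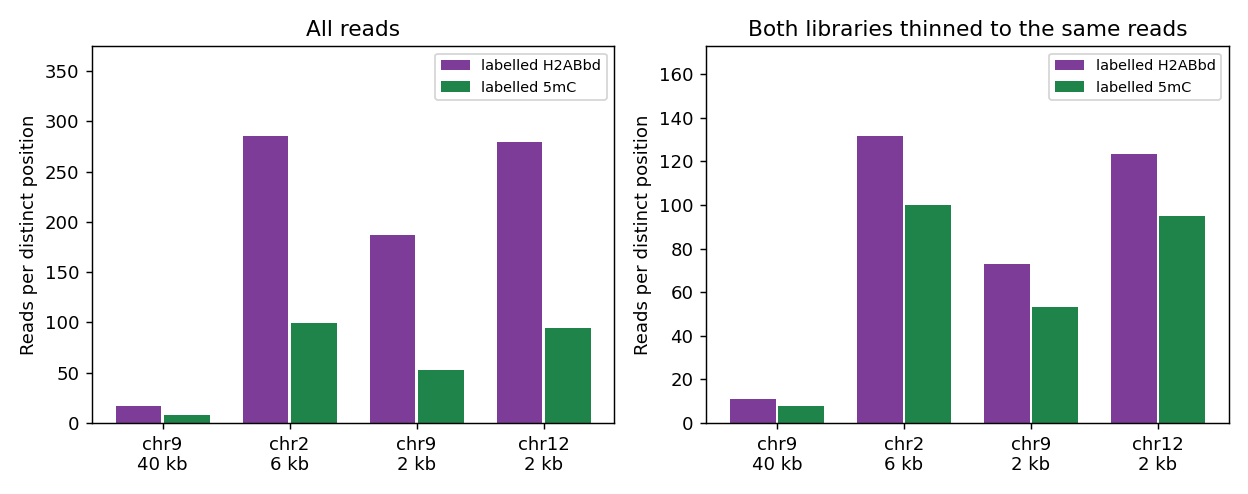
Reads per distinct position in the 4 regions, with all reads (left) and with both libraries thinned to the same number of reads in a region (right, exact expectation), in the H2ABbd-labelled library and the 5mC-labelled library. The chromosome 2 bars are 285 and 99.8 at left and 132 and 99.8 at right, with the H2ABbd-labelled library higher in every region in both panels.

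Many positions in the 4 regions were read in both libraries. Of the 38347 distinct positions of the H2ABbd-labelled library in the 4 regions 80.7% (80.3 to 81.0%) were also seen in the 5mC-labelled library, and of the 45024 distinct positions of the 5mC-labelled library 68.7% (68.3 to 69.1%) were seen in the H2ABbd-labelled library. In the 40 kb stretch the share was 78.5% of the H2ABbd-labelled library and 66.7% of the 5mC-labelled library. In the chromosome 2 region the share was 96.6% of the H2ABbd-labelled library and 84.0% of the 5mC-labelled library. In the 2 kb regions it was 99.5% on chromosome 9 and 98.9% on chromosome 12 for the H2ABbd-labelled library, against 83.5% and 84.5% for the 5mC-labelled library. Outside the 4 regions, where positions are sparsely covered, 1.76% of the H2ABbd-labelled library and 0.299% of the 5mC-labelled library were shared. In the 4 regions 38.3% of all possible starts were occupied in the H2ABbd-labelled library and 45.0% in the 5mC-labelled library. Such occupancy by itself brings far more sharing than sparse coverage does. At shared positions the reads of the libraries had Spearman rho = 0.707 in the chromosome 2 region, 0.715 in the 2 kb region of chromosome 9, 0.766 in the chromosome 12 region and 0.507 in the 40 kb stretch. In the other run compared, on chromosome 17, 74.7% of the 1369 distinct positions of the H2ABbd-labelled library and 15.4% of the 6644 of the 5mC-labelled library were shared. A high share of the H2ABbd-labelled library was thus not limited to the 4 regions. At these 1022 shared positions rho was 0.0379. There the H2ABbd-labelled library had 2009 reads and the 5mC-labelled library 14129, at 1.47 reads per position in the H2ABbd-labelled library and 2.13 in the 5mC-labelled library. Of these reads 35.4% were plus in the H2ABbd-labelled library and 47.2% in the 5mC-labelled library.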

How the data were processed

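Per the submitters' processing notes, the authors checked reads with FastQC and aligned them to mm9 with Bowtie; the sources used here do not give versions, mismatches or where reads that match more than 1 position were placed. That placement decides how many reads a repeat receives. The deposited files list 1 aligned read of 42 bp per line. Their deposited score column is 255 on every line and was not used. Lines with broken separators (8 in the H2ABbd-labelled library, 1 in the 5mC-labelled library) were left out.

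The 4 regions, the windows and the measures were chosen with earlier results of these data known. Reads were assigned by their 5' end (1-based). Distinct positions are unique combinations of chromosome, 5' end and strand. RPM is reads scaled to 1000000 of all 3503839 (H2ABbd) or 9266471 (5mC) reads. Shares have exact Clopper-Pearson 95% intervals. Amplified reads carry no molecular identifiers and are not independent molecules, and intervals cover counting error only. Distinct positions at equal reads are exact hypergeometric expectations. Windows named are those with the most reads per region and library, and positions named are the 3 with the most reads per library. The pair counts of distinct starts and the thinning were tested on simulated data, where any multiple of the simulated spacing counted as recovered. The autocorrelation of log2(reads + 1) was not tested in this way. Python 3.11.15, numpy 2.4.6, scipy 1.17.1, pandas 2.3.3 and matplotlib 3.10.9 were used. The 21 listed alternatives varied the measure, regions, borders, positions, windows and lags.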

Additional observations from a re-analysis of the deposited data

How the results depend on the processing

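The 21 listed alternatives and others chosen after seeing the data gave 43 values for 10 results, 6 of them from the latter. The latter were 20 neighbouring lags, 100 neighbouring lags, and reads per position without the 40 kb stretch. Of the 43 values, 9 stayed within the interval or rounding of the value reported. The ratio of read shares, 5.95, was 4.91 over distinct positions, 5.32 without the chromosome 2 region, 6.68 without the 40 kb stretch and 5.91 without the 10 most-read positions. Reads per distinct position in the H2ABbd-labelled library (46.2) and the 5mC-labelled library (17.5) were 44.4 and 16.9 without those positions, 22.7 and 9.59 without the chromosome 2 region, 272 and 93.0 without the 40 kb stretch, and 55.6 and 24.5 with strands merged, so leaving out either of these regions moved both values by more than 1.5 times. The plus share of distinct positions, 23.7% in the H2ABbd-labelled library and 45.9% in the 5mC-labelled library, was 60.3% and 61.7% over all reads, and 18.2% and 43.8% at positions with at least 2 reads. It was 21.3% in the H2ABbd-labelled library without the chromosome 2 region. The leading spacing of distinct starts (468 bp in the H2ABbd-labelled library, 86 bp in the 5mC-labelled library) was 234 bp in both at positions with at least 2 reads and with pairs weighted by reads, and 594 and 591 bp in the chromosome 2 region alone. With 20 neighbouring lags it was 234 bp in the H2ABbd-labelled library, and with 100 it was 468 bp in the 5mC-labelled library. The cause of these shifts was not tested. The correlation of windows, 0.993, was 0.982 in 50 bp windows, 0.995 in 500 bp windows, 0.982 with all reads and 0.984 in the 40 kb stretch. The shared positions (80.7% of the H2ABbd-labelled library, 68.7% of the 5mC-labelled library) were 92.7% and 80.3% within 1 bp and 79.1% and 67.2% without the chromosome 2 region. They were 75.4% of the H2ABbd-labelled library at positions with at least 2 reads. No paired analysis was possible because each group has 1 library. Without replicates or an input library, depth limits only the counting error, and copy number and enrichment cannot be told apart.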

Other observations

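The read names give the tile of the flow cell lane and the coordinates on it. The reads of the 4 regions came from all 96 tiles. They made up 46.2 to 60.0% of a tile's reads in the H2ABbd-labelled library (median 49.6%) and 7.52 to 10.6% in the 5mC-labelled library (median 8.28%). Of the reads in the 4 regions, 0.0859% (0.0816 to 0.0903%) in the H2ABbd-labelled library had another read of the same position within 100 units on the same tile, while 1733975 of 1772322 reads repeated a position. In the 5mC-labelled library it was 0.0376% (0.0334 to 0.0421%). In the rest of the libraries the shares were 0.0595% and 0.0506%. These are shares of all reads, though only reads at repeated positions can have such a neighbour. In the H2ABbd-labelled library 1522 reads had one against 1733975 repeating reads in the 4 regions, and 1030 against 372575 elsewhere. In the 5mC-labelled library it was 296 against 742579, and 4291 against 467559. Relative to repeating reads, close neighbours were thus rarer in the 4 regions than elsewhere in both libraries. Nearly all reads that repeated a position in the 4 regions thus lay apart from each other on the flow cell.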
